A study of Zea mays with 6 samples.

Results

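Abscisic acid is the hormone that plants use during seed maturation, dormancy and drought. In its core pathway, soluble receptors of the PYR/PYL family bind the hormone and then inhibit protein phosphatases 2C (PP2Cs) of the clade called group A. These phosphatases otherwise keep SnRK2 protein kinases inactive, and the released kinases phosphorylate bZIP transcription factors of the ABI5 type and anion channels. In cereal kernels the hormone is known for driving storage and desiccation programmes, and maize viviparous mutants, several of which lack the hormone or its response, germinate on the ear. Most PP2Cs lie outside group A and dephosphorylate other proteins, so a gene described as a PP2C need not take part in this pathway.

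The genes described here are those whose description in the deposited tables contains "abscisic acid receptor", "protein phosphatase 2C" or "SAPK" (the rice name for SnRK2 kinases). The search found 157 of the 39179 genes listed, which were 11 receptors, 145 phosphatases and 1 kinase. The 11 receptors were all annotated with abscisic acid binding and protein phosphatase inhibitor activity, and 140 of the 145 phosphatases with protein serine/threonine phosphatase activity. Of these genes only 8 receptors, 2 phosphatases and the kinase were placed by the tables in the plant hormone signal transduction pathway.

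RNA was sequenced from maize endosperm, the storage tissue of the kernel, at 20 days after pollination. The nacRNAi group (line Ni4, labelled as a sibling of the wild type) is transgenic for RNA interference against NAC transcription factor genes, and the wild-type group is the inbred B73. Each group had 3 libraries. The labels used here do not name the promoter of the construct or say how many transformation events the line stands for, and nothing tells whether the 3 libraries of each line are from different plants. The p-values below therefore measure only the spread between these libraries.

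Total counts ran from 59084750 to 69670876 in the nacRNAi libraries and from 55812999 to 64603196 in the wild-type libraries. The gene model taken for NAC130, Zm00001d008403, had 238, 227 and 222 CPM (read counts relative to library size, scaled by TMM) in nacRNAi, against 1337, 1335 and 1055 CPM in wild type. The gene model taken for NAC128, Zm00001d040189, overlapped between the lines, with 248, 300 and 284 CPM in nacRNAi and 309, 359 and 272 CPM in wild type. Genes described as zeins, the storage proteins that mark starchy endosperm, summed to 188246 ± 6082 CPM in nacRNAi and 437190 ± 28007 CPM in wild type (SD, n = 3 each), and 17 of 18 were lower. Embryo and oil body genes summed to 1005 to 1297 CPM in nacRNAi and 1540 to 1620 CPM in wild type, with 8 of 10 lower. Of all tested genes 24.0% were lower. The 4 genes described as aleurone genes summed to 105 ± 3.4 CPM in nacRNAi and 125 ± 9.94 CPM in wild type (SD, n = 3 each). In FPKM (defined below) the embryo and oil body sum was higher in nacRNAi, at 2248 ± 410 against 1643 ± 191 in wild type. The aleurone sum was also higher, at 106 ± 7.76 against 85.3 ± 8.49. The zein sum stayed lower, at 185501 ± 7954 against 346912 ± 52238 (SD, n = 3 each). That wild-type sum takes the 15 kDa zein gene Zm00001d035760 at 0.0 FPKM in replicates 1 and 2, despite its counts there. In wild-type replicate 3 the gene had 99367 FPKM, so the wild-type mean and SD in FPKM are affected. In bulk tissue, fewer cells of a type and less RNA per cell cannot be told apart, and the part of these markers in the results below was not tested.

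Across all 22259 genes tested with edgeR's quasi-likelihood test, 47.3% passed an adjusted p of 0.05 (Benjamini-Hochberg), 23.2% higher and 24.0% lower in nacRNAi. The split depended on the scaling. Higher genes made up 49.2% of the calls under TMM, 84.9% when libraries were scaled to their total counts and 88.9% when log2(FPKM + 1) was tested with limma (FPKM, the deposited level scaled by gene length and library size). Under library totals 11234 of 22259 genes rose and 2004 fell. On the log2(FPKM + 1) scale 12812 of 25474 genes rose and 1598 fell. The median gene lay at 0.516 on the log2 scale under library totals and at 0.389 on the log2(FPKM + 1) scale. A direction below is that under TMM unless another scaling is named.

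More receptor genes fell than rose in nacRNAi under TMM. In FPKM more rose than fell, as they did among all genes. Of the 11 receptor genes 10 were tested, and 6 fell, 0 rose and 4 did not pass the test, against 24.0% of all tested genes lower and 23.2% higher. Among the 10, 1 gene was higher at an unadjusted p under 0.05 with edgeR, and DESeq2's Wald test likewise called 6 lower and 0 higher. On the log2(FPKM + 1) scale limma called 2 lower and 4 higher, where 1598 of all 25474 genes were lower and 12812 higher. In 7 receptors the libraries of the lines did not overlap, 6 lower and 1 higher, as in 29.5% and 29.6% of all tested genes. The 4 that fell at least 2-fold stand beside 8.94% of all tested genes that did so. The median log2 fold change of the 10 was -0.94, with a range of -2.15 to 0.92, and the median over all genes tested was -0.00. Summed over the 11 genes, receptor transcripts stood at 216, 209 and 215 CPM in the nacRNAi libraries, against 524, 561 and 513 CPM in the wild-type libraries. The highest nacRNAi sum was well under the lowest wild-type sum.

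Among receptors of higher level, a PYL9 gene and a PYL5 gene fell most. PYL9 Zm00001d037719 (chromosome 6, 135118687 to 135122165, forward strand) had 63.1, 62.0 and 62.9 CPM in nacRNAi, against 225, 247 and 218 CPM in wild type. Every nacRNAi library lay far below every wild-type library. The gene was 3.66-fold lower, with a log2 fold change of -1.87 and an SE of 0.07 (edgeR with Benjamini-Hochberg adjustment, adjusted p = 2.27e-06). PYL5 Zm00001d043014 (chromosome 3, 186516911 to 186517552, reverse strand) had 16.4, 15.8 and 14.2 CPM in nacRNAi, against 66.5, 73.1 and 66.1 CPM in wild type. The groups stood apart here too, and the gene was 4.44-fold lower (log2 fold change -2.15 ± 0.08, SE; edgeR adjusted p = 2.63e-06). These were the only 2 receptors whose fall also passed when FPKM values were tested, at -1.05 for PYL9 and -1.17 for PYL5 on the log2(FPKM + 1) scale.

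**Figure D1:**
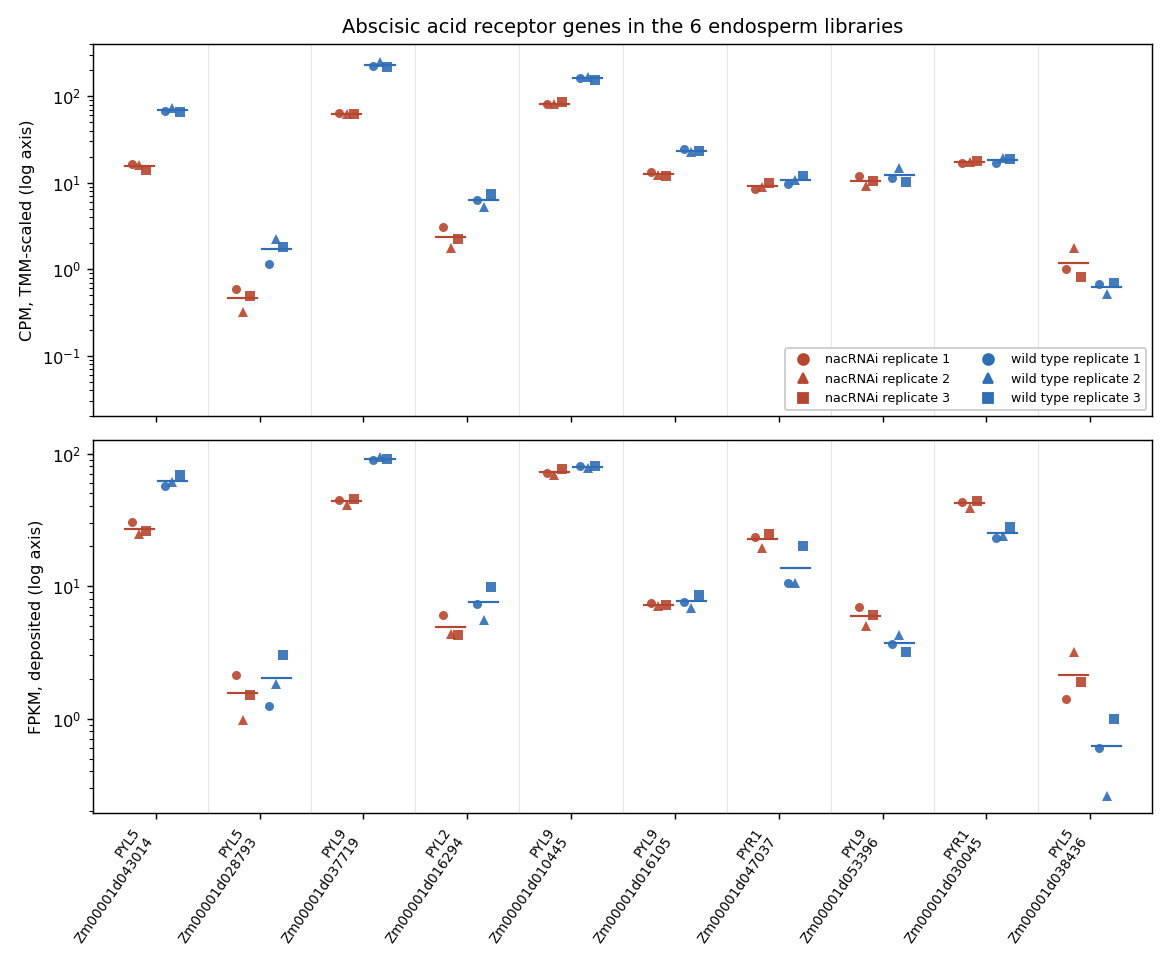
Levels of the 10 tested receptor genes in each library, as TMM-scaled CPM (upper panel) and as deposited FPKM (lower panel), both on log axes; red marks are nacRNAi libraries, blue marks wild-type libraries and lines group means. PYL9 Zm00001d037719 and PYL5 Zm00001d043014 stand apart between the lines in both panels, whereas PYR1 Zm00001d030045 overlaps in CPM (17.3 in nacRNAi, 18.4 in wild type) and is higher in nacRNAi in FPKM (42.0, against 25).

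A second PYL9 gene, Zm00001d010445 (chromosome 8, 115433371 to 115435609, reverse strand), had 81.4, 80.2 and 84.6 CPM in nacRNAi, against 162, 166 and 154 CPM in wild type. Another PYL9 gene, Zm00001d016105 (chromosome 5, 144804711 to 144808906, reverse strand), had 13.3, 12.3 and 12.0 CPM in nacRNAi, against 24.4, 22.7 and 23.5 CPM in wild type. In both genes the libraries of the lines were well separated. The log2 fold changes were -0.97 ± 0.06 for Zm00001d010445 and -0.91 ± 0.08 for Zm00001d016105 (SE; edgeR adjusted p = 1.59e-05 and 9.03e-05). On the log2(FPKM + 1) scale their differences were -0.13 and -0.07, and neither passed (limma adjusted p = 0.113 and 0.558).

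The remaining 2 falls were in weakly expressed receptors. PYL2 Zm00001d016294 (chromosome 5, 155926763 to 155927329, forward strand) had 3.04, 1.75 and 2.26 CPM in nacRNAi, against 6.35, 5.31 and 7.46 CPM in wild type (log2 fold change -1.44 ± 0.24, SE; edgeR adjusted p = 0.00172). PYL5 Zm00001d028793 (chromosome 1, 46498733 to 46499395, reverse strand) had 0.591, 0.322 and 0.488 CPM in nacRNAi, against 1.16, 2.21 and 1.81 CPM in wild type (log2 fold change -1.88 ± 0.38, SE; adjusted p = 0.00486 from edgeR). The lines did not overlap in CPM in either gene, but they did in FPKM, where PYL2 averaged 4.9 ± 1.0 in nacRNAi and 7.58 ± 2.19 in wild type (SD, n = 3 each). Neither fall passed on the log2(FPKM + 1) scale (limma adjusted p = 0.0737 and 0.47).

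Neither PYR1 gene passed the test. PYR1 Zm00001d030045 (chromosome 1, 101898451 to 101899089, reverse strand) had 17.0, 17.2 and 17.6 CPM in nacRNAi, against 16.7, 19.5 and 19.0 CPM in wild type. The libraries overlapped (log2 fold change -0.09 ± 0.09, SE; edgeR adjusted p = 0.429). PYR1 Zm00001d047037 (chromosome 9, 116292816 to 116293433, forward strand) likewise overlapped, and averaged 9.08 ± 0.833 CPM in nacRNAi and 10.8 ± 1.24 CPM in wild type (SD, n = 3 each; log2 fold change -0.25, edgeR adjusted p = 0.136). The fourth tested PYL9 gene, Zm00001d053396 (chromosome 4, 229215684 to 229219292, reverse strand), had 11.9, 9.09 and 10.4 CPM in nacRNAi and 11.4, 14.9 and 10.2 CPM in wild type, which also overlapped (log2 fold change -0.22, edgeR adjusted p = 0.313).

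These 3 genes changed direction with the scaling. Under library totals, PYR1 Zm00001d030045 rose (0.43, edgeR adjusted p = 0.00475). On the log2(FPKM + 1) scale all 3 were higher, at 0.73 for Zm00001d030045, 0.74 for Zm00001d047037 and 0.57 for Zm00001d053396 (limma adjusted p = 0.000875, 0.0423 and 0.0119). Those shifts are read against the median gene, which lay at 0.516 and 0.389 under these settings.

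PYL5 Zm00001d038436 (chromosome 6, 157247855 to 157248457, forward strand) was the only tested receptor with a positive value. It had 1.0, 1.78 and 0.809 CPM in nacRNAi, against 0.671, 0.52 and 0.699 CPM in wild type. All nacRNAi libraries lay above all wild-type libraries, but the difference did not pass (log2 fold change 0.92 ± 0.39, SE; edgeR adjusted p = 0.0866). It passed under library totals (1.43, adjusted p = 0.013), on the log2(FPKM + 1) scale (0.95, adjusted p = 0.0171) and after a length trend was removed (1.21, adjusted p = 0.0402). The eleventh receptor, PYL9 Zm00001d002533 (chromosome 2, 14891505 to 14892330, forward strand), had 2, 2 and 5 counts in nacRNAi and 0, 2 and 0 counts in wild type, too few to test.

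**Figure D2:**
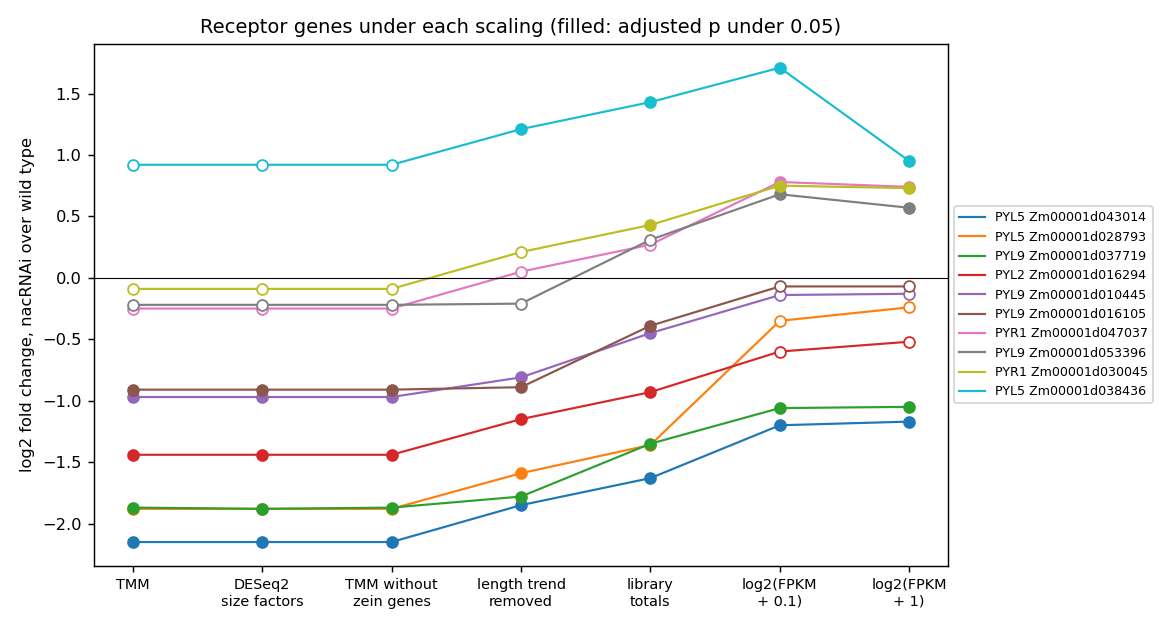
Log2 fold change (nacRNAi over wild type) of each tested receptor gene under 7 scalings or units; filled marks have an adjusted p under 0.05. PYL5 Zm00001d043014 and PYL9 Zm00001d037719 are lower and filled throughout, while both PYR1 genes and PYL9 Zm00001d053396 cross 0.

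The receptors differed in which of them were most abundant. Between genes, levels are compared as FPKM, which allows for length. In nacRNAi, PYL9 Zm00001d010445 was highest with 72.4 ± 3.33 FPKM, followed by PYL9 Zm00001d037719 with 43.7 ± 2.41 and PYR1 Zm00001d030045 with 42.0 ± 2.65 (SD, n = 3), and the spreads of the last 2 overlapped. In wild type, PYL9 Zm00001d037719 came first with 91.3 ± 2.62 FPKM, then PYL9 Zm00001d010445 with 79.5 ± 1.9 and PYL5 Zm00001d043014 with 61.9 ± 6.02 (SD, n = 3). PYR1 Zm00001d030045 thus held the third place in nacRNAi and, at 25 ± 2.6 FPKM, the fourth in wild type. The 3 leading genes made up 68.9% of the summed receptor FPKM in nacRNAi and 79.4% in wild type. In FPKM the receptor sum was 229 ± 13.7 in nacRNAi and 293 ± 18.9 in wild type (SD, n = 3 each), a smaller gap than in CPM.

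The phosphatases did not move as a class. Of the 145 genes 84 were tested, of which 27 rose, 23 fell and 34 did not pass. That is 32.1% higher and 27.4% lower, beside 23.2% and 24.0% of all genes tested. Changes of at least 2-fold were found in 6 genes upward and 6 downward, where 8.7% and 8.94% of all tested genes did so. The median log2 fold change was 0.08. The split turned on the scaling as it did for all genes: 46 rose and 5 fell under library totals, and 53 rose and 3 fell on the log2(FPKM + 1) scale. Summed over the class, CPM was 1402 ± 48.3 in nacRNAi and 1349 ± 92.8 in wild type, and FPKM was 675 ± 43.3 in nacRNAi and 440 ± 37.8 in wild type (SD, n = 3 each).

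**Figure D3:**
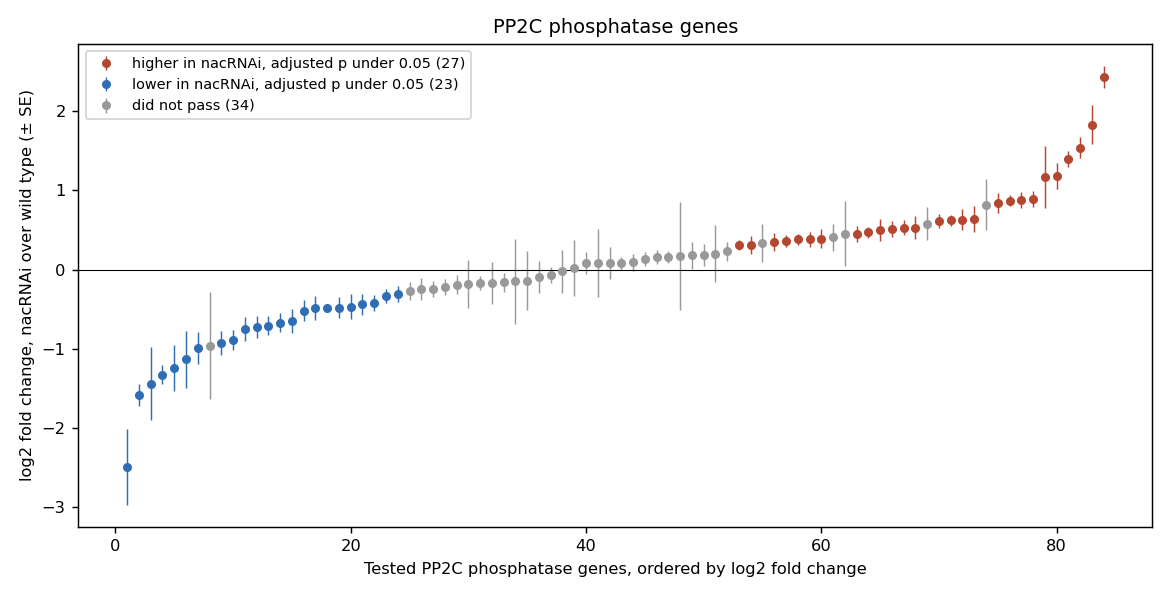
Log2 fold change (nacRNAi over wild type, bars are SE) of the 84 tested PP2C genes in order of size, with genes passing an adjusted p of 0.05 in red (27 higher) and blue (23 lower) and the other 34 in grey. The values run from -2.49 (2C 37, Zm00001d011495) to 2.43 (2C 16, Zm00001d038846), with about as many genes on either side of 0.

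The largest rise was in a gene described as protein phosphatase 2C 16, the number under which Arabidopsis HAB1, a group A phosphatase, is known. Zm00001d038846 (chromosome 6, 165730468 to 165734191, reverse strand) had 20.4, 20.1 and 22.6 CPM in nacRNAi, against 4.01, 3.23 and 4.46 CPM in wild type. The nacRNAi libraries were all several times above the wild-type ones. The gene was 5.4-fold higher (2.43 ± 0.14 in log2 terms; edgeR adjusted p = 1.3e-05) and averaged 10.3 ± 0.822 FPKM in nacRNAi and 1.23 ± 0.28 FPKM in wild type (SD, n = 3 each). It is one of the 2 phosphatases that the tables place in plant hormone signalling.

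Genes sharing that description did not share its change. Zm00001d011202 rose by less, with 17.6, 16.3 and 17.1 CPM in nacRNAi, against 12.3, 13.7 and 13.3 CPM in wild type (log2 fold change 0.38 ± 0.09, SE; adjusted p = 0.00812 from edgeR). The other two, Zm00001d011131 and Zm00001d011132, lie 21716 bases apart on chromosome 8 and differed from each other. Zm00001d011131 did not pass (0.18, adjusted p = 0.409), while Zm00001d011132 had 4.42, 4.29 and 4.25 CPM in nacRNAi, against 8.27, 6.33 and 6.89 CPM in wild type, and fell (-0.73 ± 0.14, SE; edgeR adjusted p = 0.00385). That fall did not pass under library totals (-0.21, adjusted p = 0.256) and turned to 0.1 on the log2(FPKM + 1) scale (limma adjusted p = 0.439). Whether these neighbours are alike enough to share reads was not tested, and how the counting treated such reads is not given in the sources used here.

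The gene named after ABI2, another Arabidopsis group A phosphatase, also rose. Zm00001d044301 (chromosome 3, 224583950 to 224589560, forward strand) had 48.5, 43.0 and 43.8 CPM in nacRNAi, against 30.8, 33.7 and 33.0 CPM in wild type. All nacRNAi values exceeded all wild-type values, with a log2 fold change of 0.47 ± 0.07 (SE; edgeR adjusted p = 0.00137). The opposite change occurred in a gene described as protein phosphatase 2C 37, the number of Arabidopsis PP2CA. Zm00001d011495 (chromosome 8, 152339070 to 152343283, forward strand) had 0.229, 0.154 and 0.112 CPM in nacRNAi, against 1.17, 0.583 and 1.07 CPM in wild type. At these low counts it was still 5.64-fold lower with no overlap (log2 fold change -2.49 ± 0.48, SE; adjusted p = 0.00388 from edgeR). The second 2C 37 gene, Zm00001d028574, was the second most abundant phosphatase in nacRNAi and is described with wild-type replicate 2 below.

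Over the 7 genes with a name or number of ABI2, HAB1 or PP2CA, 3 rose, 2 fell and 2 did not pass, where 23.2% of all tested genes were higher and 24.0% lower. This list was drawn up after values were seen. A second reading of the descriptions took the numbers 6, 8, 9, 30, 37, 49, 50, 51, 53 and 68 as group A. The tables do not say whether a number follows the rice or the Arabidopsis series, which differ, so membership in group A is uncertain for this list. It held 19 genes, of which 14 were tested, and 2 rose, 4 fell and 8 did not pass, with a median log2 fold change of -0.09. The list left out the 4 genes described as 2C 16, of which 2 rose and 1 fell, and the ABI2 gene, which rose. Calls over all tested genes ran at 23.2% higher and 24.0% lower. Under library totals 4 rose and 2 fell, and the median was 0.43, beside 0.516 for the median of all genes. Without wild-type replicate 2, 4 rose and 3 fell, and the median was 0.08.

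Within that list the clearest fall was in a gene described as 2C 9. Zm00001d002369 (chromosome 2, 11162219 to 11166257, forward strand) had 6.42, 6.39 and 6.22 CPM in nacRNAi, against 14.2, 18.3 and 15.2 CPM in wild type (log2 fold change -1.33 ± 0.12, SE; adjusted p = 9.24e-05 from edgeR). The 5 genes described as 2C 9 went in both directions. Zm00001d024325 fell (log2 fold change -0.52, adjusted p = 0.0146 from edgeR), but it did not pass without wild-type replicate 1 (-0.43, adjusted p = 0.0532) or under library totals. Zm00001d026363, whose model overlaps that of Zm00001d026364 on the other strand, rose by 0.61 ± 0.09 (SE; edgeR adjusted p = 0.00101). Zm00001d006486 and Zm00001d026269 did not pass (0.45 and -0.02; edgeR adjusted p = 0.4 and 0.954).

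Of the genes described as 2C 49, Zm00001d008171 had 12.1, 9.81 and 11.1 CPM in nacRNAi, against 7.01, 8.04 and 6.25 CPM in wild type, and rose (log2 fold change 0.63 ± 0.13, SE; adjusted p = 0.00575 from edgeR). The other, Zm00001d024732, did not pass under TMM (-0.16, adjusted p = 0.288) but was higher on the log2(FPKM + 1) scale (0.66, limma adjusted p = 0.00312). The genes described as 2C 8 (Zm00001d020053), 2C 68 (Zm00001d002542) and 2C 6 (Zm00001d052852) had log2 fold changes of -0.27, 0.34 and 0.02, none of which passed (edgeR adjusted p = 0.0704, 0.283 and 0.965). The 2C 30 genes Zm00001d007264, Zm00001d035263 and Zm00001d048989, had at most 0.267 CPM in any library and were not tested.

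Some descriptions, grouped after their values were seen and not tested as groups, had all their tested genes called in 1 direction. Rises were called in all 4 tested genes described as 2C 21 (of 12), all 3 described as 2C 74 and both described as 2C 72. Falls were called in both described as 2C 59 and both described as 2C 32. Over all tested genes 23.2% were called higher and 24.0% lower. The 2C 21 gene Zm00001d046828 (chromosome 9, 107485894 to 107490873, reverse strand) had 19.2, 22.8 and 21.3 CPM in nacRNAi, against 7.98, 8.66 and 7.52 CPM in wild type, a log2 fold change of 1.39 ± 0.10 (SE; edgeR adjusted p = 4.22e-05). The others, Zm00001d046831, Zm00001d036710 and Zm00001d021390, rose as well, with log2 fold changes of 1.18, 0.84 and 0.62 (edgeR adjusted p = 0.000682, 0.00139 and 0.000208), and the model of Zm00001d021390 overlaps one on the other strand. The 2C 74 gene Zm00001d011195 (chromosome 8, 142645175 to 142650869, forward strand) had 23.8, 23.8 and 23.3 CPM in nacRNAi, against 7.27, 9.76 and 7.34 CPM in wild type. Its log2 fold change was 1.54 ± 0.13 (SE; adjusted p = 6.6e-05 from edgeR). The lines did not overlap in any of these 5 genes, which were picked among called rises. Of all tested genes 29.6% were higher without overlap.

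The genes described as 2C 5 split. Zm00001d047679 (chromosome 9, 139129905 to 139133566, forward strand), the most abundant of them, had 79.5, 84.1 and 85.0 CPM in nacRNAi, against 41.9, 48.3 and 45.6 CPM in wild type, and rose (log2 fold change 0.87 ± 0.07, SE; adjusted p = 6.08e-05 from edgeR). Zm00001d022565 rose by a like amount, 0.89 (adjusted p = 0.000253). Zm00001d007207 (chromosome 2, 224754000 to 224757481, forward strand) went the other way, with 3.18, 3.51 and 3.75 CPM in nacRNAi, against 11.1, 11.1 and 9.0 CPM in wild type, a fall of -1.58 ± 0.14 (SE; edgeR adjusted p = 8.3e-05).

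Further rises were those of the 2C 72 gene Zm00001d016332, with 29.5, 29.5 and 28.7 CPM in nacRNAi, against 13.7, 17.0 and 17.0 CPM in wild type (log2 fold change 0.88, edgeR adjusted p = 0.000265), and of the PP2C family gene Zm00001d007529. The family gene had 4.04, 3.47 and 3.88 CPM in nacRNAi, against 1.08, 0.77 and 1.34 CPM in wild type (log2 fold change 1.83, edgeR adjusted p = 0.000634). It contains a second PP2C model on the same strand, Zm00001d007528, so reads cannot be assigned surely between them. The nearby Zm00001d007530, with the same description, fell (log2 fold change -0.65, adjusted p = 0.00825 from edgeR).

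The most abundant phosphatase in both lines was described as 2C 59. Zm00001d015279 (chromosome 5, 82559260 to 82562792, forward strand) had 84.5, 101 and 123 CPM in nacRNAi, against 155, 171 and 195 CPM in wild type. The lines did not overlap in CPM, and the gene fell (log2 fold change -0.75 ± 0.15, SE; edgeR adjusted p = 0.00604). In FPKM they did overlap, with 61.7 ± 20.6 in nacRNAi and 80.3 ± 14.8 in wild type (SD, n = 3 each), and the fall passed neither on the log2(FPKM + 1) scale (limma adjusted p = 0.213) nor under library totals (edgeR adjusted p = 0.249). The gene held 9.15% of the summed phosphatase FPKM in nacRNAi and 18.2% in wild type. The second 2C 59 gene, Zm00001d001988, had 54.0, 53.3 and 55.6 CPM in nacRNAi, against 77.6, 74.9 and 76.8 CPM in wild type, and fell (log2 fold change -0.49, adjusted p = 0.000247 from edgeR). Its direction turned under library totals (0.02, adjusted p = 0.801).

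The remaining falls among the 8 largest were smaller than those of 2C 5 and lay between -1.24 and -0.71 on the log2 scale. The gene with a PP2C and a cyclic nucleotide-binding or kinase domain, Zm00001d053313, had 1.18, 0.895 and 1.19 CPM in nacRNAi, against 3.45, 1.96 and 2.32 CPM in wild type (-1.24, edgeR adjusted p = 0.00859). The 2C 12 gene Zm00001d025548 (-0.99, adjusted p = 0.00512), the 2C 73 gene Zm00001d037949 (-0.93, adjusted p = 0.0014), the 2C 22 gene Zm00001d018394 (-0.89, adjusted p = 0.000816) and the 2C 32 gene Zm00001d047412 (-0.71, adjusted p = 0.00164) followed in edgeR's test. None of these 5 passed on the log2(FPKM + 1) scale, where Zm00001d018394 lay at 0.0 and Zm00001d047412 at 0.17. The model of Zm00001d018394 overlaps one on the other strand.

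Many phosphatase genes were not seen in endosperm, as was so for genes at large. No count was recorded for 37 of the 145 in any library, and 24 more had too few to test, with a largest count of 43. Of all 39179 genes listed, 8195 had no count and 16920 were not tested, beside 61 phosphatases not tested. A count of 0 allows a level of up to 0.0362 to 0.0625 CPM, depending on the library. Of the 31 genes described as 2C 33, 26 had no count and none was tested, whereas all 9 genes described as 2C 48 were tested (1 rose and 2 fell). By mean FPKM over all libraries, 72 phosphatases reached 1, 37 reached 5, 14 reached 10 and 4 reached 20.

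Wild-type replicate 2 stood apart in several phosphatases, and leaving it out moved their values. In 9 of the 84 tested phosphatases (10.7%) it lay at least 1.5-fold above both other wild-type libraries, as it did in 6.02% of all tested genes. Neither other wild-type library did so in any phosphatase, against 3.07% (replicate 1) and 4.41% (replicate 3) of all tested genes. Of the 9 genes, 4 were among the 14 tested genes with group A numbers, and none was a receptor. Because the 9 genes were picked by their high value in this library, leaving it out must lower their wild-type mean. The values without it below are therefore a description and no independent test of a difference between the lines. In wild-type replicate 2 all 4 tested basal transfer layer genes lay at least 1.5-fold below both other wild-type libraries. Of all tested genes 4.6% did so. The basal transfer layer genes varied in other libraries too. In nacRNAi replicate 1 and in wild-type replicate 1, 3 of the 4 lay at least 1.5-fold above both others of their line. That held for 4.18% and 3.07% of all tested genes. Counts were low in some libraries, down to 3 in Zm00001d041671. The 8 genes of that list summed to 24.0, 17.9 and 15.1 CPM in nacRNAi and 62.6, 25.5 and 65.4 CPM in wild type. Whether tissue sampling had a part in this was not tested.

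The 2C 37 gene Zm00001d028574 (chromosome 1, 39490113 to 39492146, reverse strand), the other phosphatase placed in plant hormone signalling, shows the pattern. It had 45.9, 54.3 and 56.4 CPM in nacRNAi, against 33.3, 84.3 and 30.4 CPM in wild type. The nacRNAi libraries lay below wild-type replicate 2 and above wild-type replicates 1 and 3, and with all libraries the difference did not pass (log2 fold change 0.08 ± 0.43, SE; edgeR adjusted p = 0.893). Without wild-type replicate 2 the gene was higher in nacRNAi (0.71, edgeR adjusted p = 0.00183). The 2C 9 gene Zm00001d026269 had 43.5, 43.1 and 39.9 CPM in nacRNAi, against 32.0, 62.5 and 34.2 CPM in wild type. It moved in the same way, from a log2 fold change of -0.02 (adjusted p = 0.954) with all libraries to 0.35 (adjusted p = 0.0107) without that one.

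The 2C 48 genes concerned differed in where replicate 2 lay. Zm00001d013220 had 18.8, 18.1 and 17.1 CPM in nacRNAi, against 10.2, 37.9 and 11.7 CPM in wild type. Its log2 fold change was -0.15 (edgeR adjusted p = 0.843) with all libraries and 0.71 (adjusted p = 0.00197) without wild-type replicate 2. Zm00001d034109 had 18.6, 16.9 and 20.2 CPM in nacRNAi, against 7.3, 16.4 and 7.91 CPM in wild type, and its value was 0.82 (adjusted p = 0.0803) with all libraries and 1.28 (adjusted p = 0.000239) without that one. With all libraries this gene also passed in DESeq2's Wald test (0.82, adjusted p = 0.00726), under library totals (1.35, adjusted p = 0.0084) and on the log2(FPKM + 1) scale (1.41, limma adjusted p = 0.00214). In the first gene the lines overlapped only through replicate 2, and in the second all nacRNAi libraries lay above it.

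Of the 6 genes described as 2C 30, 2 were tested, and both were highest in wild-type replicate 2. Zm00001d028752 had 2.21, 1.83 and 2.15 CPM in nacRNAi, against 1.88, 8.62 and 1.52 CPM in wild type, and its value turned from -0.96 (edgeR adjusted p = 0.299) with all libraries to 0.27 (adjusted p = 0.404) without wild-type replicate 2. Zm00001d047732 had 0.47, 0.657 and 0.725 CPM in nacRNAi, against 1.25, 2.83 and 0.945 CPM in wild type. Its fall of -1.44 (adjusted p = 0.0337) was -0.83 (adjusted p = 0.118) without wild-type replicate 2, and it was also lost without nacRNAi replicate 1, 2 or 3 (-1.27, -1.48 and -1.57; edgeR adjusted p = 0.0952, 0.0852 and 0.0617). The 2C 22 gene Zm00001d045128 rose with all libraries (1.17, edgeR adjusted p = 0.0373) and without wild-type replicate 2 (1.63, edgeR adjusted p = 0.00785), but not without nacRNAi replicate 1 or 2 or wild-type replicate 1 or 3 (1.07, 1.09, 0.98 and 1.0). The 2C 63 gene Zm00001d048131 and the 2C 4 gene Zm00001d034655 passed neither with that library (-0.14 and -0.18) nor without it (0.32 and 0.18).

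**Figure D4:**
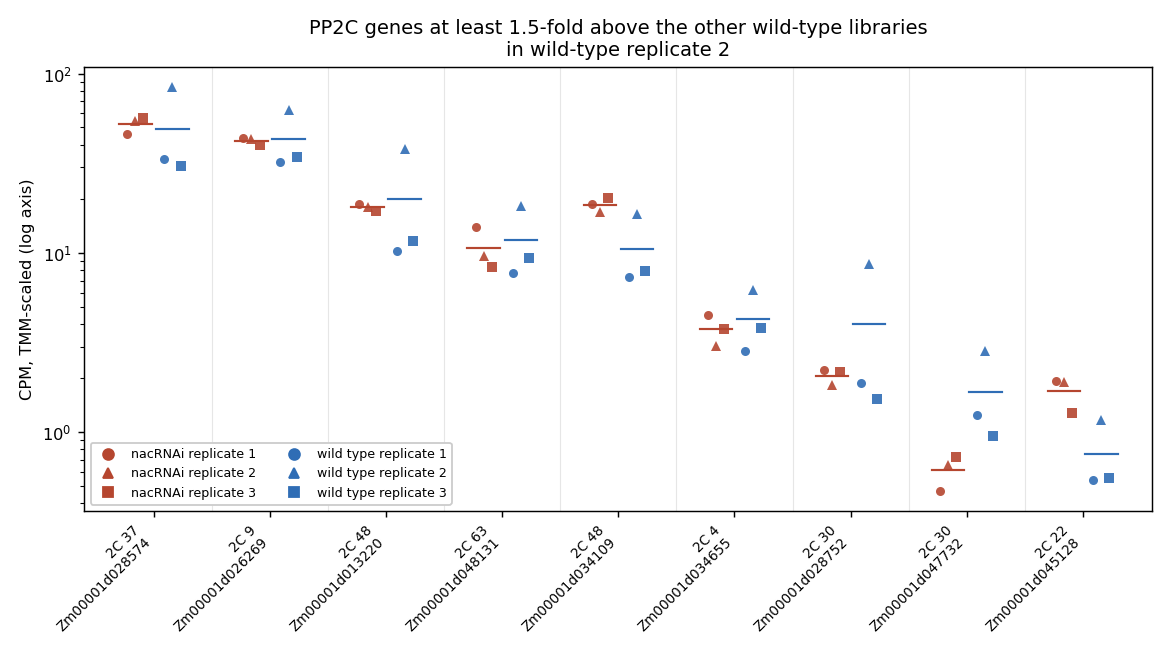
TMM-scaled CPM (log axis) in each library of the 9 PP2C genes in which wild-type replicate 2 (blue triangle) lay at least 1.5-fold above both other wild-type libraries; red marks are nacRNAi libraries and lines group means. In 2C 37 Zm00001d028574 the 3 nacRNAi libraries (45.9 to 56.4 CPM) sit below wild-type replicate 2 (84.3) and above wild-type replicates 1 and 3 (33.3 and 30.4).

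The single gene described as a SAPK kinase did not pass the test. Zm00001d012263 (chromosome 8, 171421196 to 171427134, reverse strand) had 20.5, 20.1 and 20.5 CPM in nacRNAi, against 16.7, 19.2 and 19.4 CPM in wild type. The nacRNAi libraries all lay above the wild-type ones, but by little, and the difference missed the threshold (log2 fold change 0.14 ± 0.09, SE; edgeR adjusted p = 0.205). In FPKM it averaged 9.03 ± 0.422 in nacRNAi and 5.41 ± 0.752 in wild type (SD, n = 3 each), and it was called higher on the log2(FPKM + 1) scale (0.65, limma adjusted p = 0.00197) and under library totals (0.66, edgeR adjusted p = 0.000489).

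Most SnRK2 kinases carry other descriptions, SRK2 or SnRK2, and 12 of 13 such genes were tested. Of these 5 rose, 3 fell and 4 did not pass, with a median log2 fold change of 0.23, against 23.2% of all genes higher and 24.0% lower. Under library totals and on the log2(FPKM + 1) scale 10 rose and none fell. Rises made up 84.9% and 88.9% of the calls over all genes under these settings. The SRK2A gene Zm00001d038326 had 157, 159 and 154 CPM in nacRNAi, against 86.3, 85.5 and 84.6 CPM in wild type. The tight, separate groups gave a log2 fold change of 0.87 ± 0.05 (SE; edgeR adjusted p = 1.56e-05). SRK2E Zm00001d033339 rose by 1.75 (adjusted p = 0.000411), SRK2C Zm00001d022179 by 0.72 (adjusted p = 0.000212) and the weakly expressed SRK2C Zm00001d047220 by 2.82 (adjusted p = 0.000679) in edgeR's test. SRK2E is the Arabidopsis kinase OST1, which acts on anion channels in guard cells. The SRK2E gene with the highest level, Zm00001d013736, had 210, 225 and 254 CPM in nacRNAi, against 188, 183 and 187 CPM in wild type (log2 fold change 0.31, edgeR adjusted p = 0.0129). The genes that fell were SRK2A Zm00001d026690 and Zm00001d003659 and SRK2E Zm00001d013201, with log2 fold changes of -0.51, -0.53 and -0.31 (edgeR adjusted p = 0.00095, 0.0116 and 0.0127).

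Large falls were found among genes of hormone breakdown. The abscisic acid 8'-hydroxylases start the main route of abscisic acid inactivation. Of these 5 genes 3 fell, each by over 2-fold, and 2 did not pass, against 24.0% of all genes lower and 8.94% lower by at least 2-fold, and the median of their log2 fold changes was -2.45. Abscisic acid 8'-hydroxylase3 (Zm00001d050021) had 19.9, 17.4 and 10.1 CPM in nacRNAi, against 247, 317 and 248 CPM in wild type, a log2 fold change of -4.10 ± 0.29 (SE; adjusted p = 0.000155 from edgeR). Abscisic acid 8'-hydroxylase1 (Zm00001d017762) ran the other way, with 13.9, 11.3 and 12.5 CPM in nacRNAi, against 1.57, 8.91 and 1.97 CPM in wild type. Its difference did not pass with all libraries (1.6, adjusted p = 0.113) and did without wild-type replicate 2 (2.83, adjusted p = 5.14e-05). That library was left out because it stood apart in this gene, so the second value is a description only.

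In the synthesis list 13 of 37 genes were tested, and 3 rose, 2 fell and 8 did not pass, against 23.2% of all genes higher and 24.0% lower. Without wild-type replicate 2 the rises numbered 5. The largest fall was in a gene described as aldehyde oxidase/xanthine dehydrogenase, Zm00001d019376, with 1.06, 1.34 and 1.52 CPM in nacRNAi, against 27.9, 43.5 and 43.3 CPM in wild type (log2 fold change -4.87, edgeR adjusted p = 1.47e-05). Zeaxanthin epoxidase2 (Zm00001d025545), which acts early in the route, rose by 1.59 (edgeR adjusted p = 0.0029). The gene of the cleavage step that limits synthesis, viviparous14 (Zm00001d033222), did not pass (1.16, edgeR adjusted p = 0.0774). It had 0.904, 0.699 and 0.893 CPM in nacRNAi, against 0.242, 0.625 and 0.247 CPM in wild type, so that wild-type replicate 2 lay nearest to the nacRNAi libraries. Under library totals, where rises made up 84.9% of the calls over all genes, 8 genes of the list rose and 2 fell.

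Among the response factors more genes rose than fell. Of 13 tested, 9 rose, 1 fell and 3 did not pass, with a median log2 fold change of 0.61, against 23.2% of all genes higher and 24.0% lower. Without nacRNAi replicate 2 the rises numbered 5, and without nacRNAi replicate 3 they numbered 6. Most are bZIP genes described as ABI5-like, such as Zm00001d050018 with 8.04, 8.25 and 8.84 CPM in nacRNAi, against 4.02, 3.35 and 4.03 CPM in wild type (log2 fold change 1.14 ± 0.13, SE; adjusted p = 0.000306 from edgeR). The ABI5 gene itself, Zm00001d042779, was higher but scattered, with 42.3, 90.4 and 81.4 CPM in nacRNAi and 22.3, 36.8 and 14.9 CPM in wild type. Its call (1.53, edgeR adjusted p = 0.0351) was lost without nacRNAi replicate 2 or 3 or wild-type replicate 1 or 3 (1.33, 1.43, 1.47 and 1.28). The fall was in viviparous-1 (Zm00001d042396), the B3 factor of seed maturation, with 6.42, 5.4 and 5.96 CPM in nacRNAi, against 9.52, 8.62 and 11.9 CPM in wild type (-0.76, edgeR adjusted p = 0.00411). That fall was not called under library totals (-0.24, adjusted p = 0.24).

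**Figure D5:**
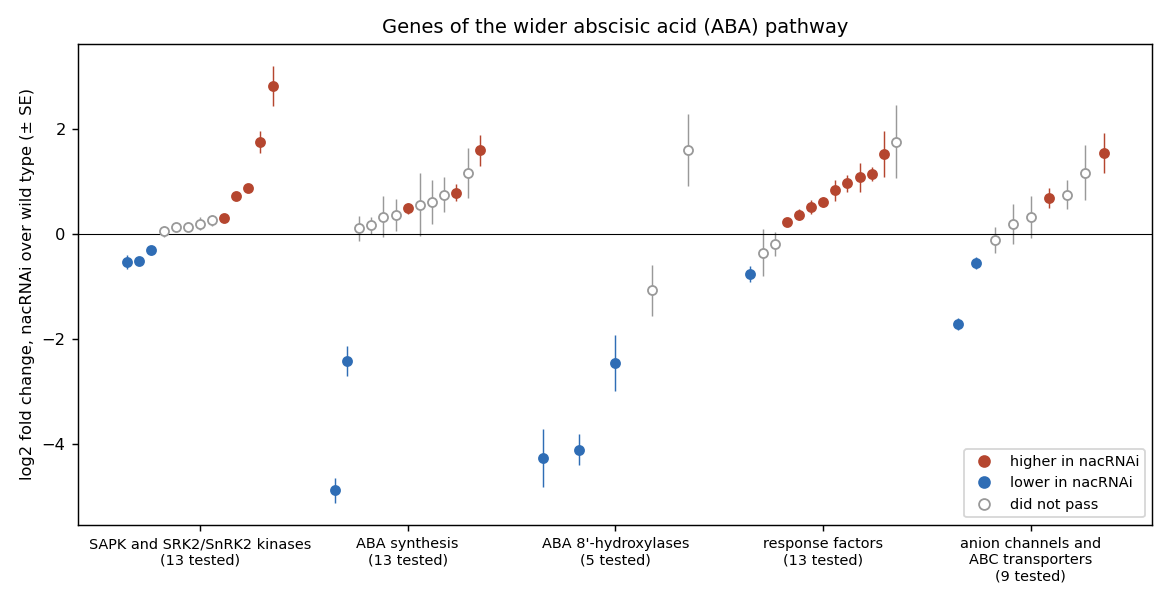
Log2 fold change (nacRNAi over wild type, bars are SE) of each tested gene in 5 groups around the receptors and phosphatases; filled red marks rose, filled blue marks fell and open marks did not pass an adjusted p of 0.05. The 8'-hydroxylases reach -4.26, 9 of 13 response factors rose, and the SAPK and SRK2/SnRK2 kinases lie between -0.53 and 2.82.

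Genes described as dehydrins, late embryogenesis abundant (LEA), HVA22 or other response proteins included more falls than rises under TMM. Of 60 tested (137 in all), 7 rose (11.7%), 21 fell (35%) and 32 did not pass, with a median log2 fold change of -0.46, against 23.2% of all genes higher and 24.0% lower. Under library totals 15 rose and 8 fell, where 11234 of all 22259 tested genes rose and 2004 fell. Of the 21, 9 are described as LEA hydroxyproline-rich glycoproteins, a family known mostly for roles outside this hormone. HVA22-like protein a (Zm00001d018049) fell (log2 fold change -1.35) and dehydrin13 (Zm00001d033483) rose (1.19; edgeR adjusted p = 4.73e-06 and 2.12e-05). Among 9 tested channels and transporters 2 rose, 2 fell and 5 did not pass, against 23.2% of all genes higher and 24.0% lower. Only 1 rose without nacRNAi replicate 1 or 2 or wild-type replicate 2 or 3. Under library totals, where rises made up 84.9% of the calls over all genes, 4 rose and 1 fell. The anion channel SLAH3 (Zm00001d044181) had 11.2, 12.2 and 10.6 CPM in nacRNAi, against 32.4, 40.2 and 38.5 CPM in wild type (log2 fold change -1.71, edgeR adjusted p = 1.83e-05), and the ABCG40 transporter gene Zm00001d044443 rose by 1.55 (edgeR adjusted p = 0.0109).

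In the genome, the receptors lie on 8 of the chromosomes that also carry phosphatases. The closest receptor and phosphatase genes by distance were PYL9 Zm00001d053396 and the 2C 76 gene Zm00001d053399 on chromosome 4, 107564 bases apart with 2 genes between them. PYL9 Zm00001d016105 and the 2C 76 gene Zm00001d016106 on chromosome 5 were next, 138397 bases apart with no gene listed between them. Both PYL9 genes thus have a 2C 76 gene as their nearest phosphatase.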

How the data were processed

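The deposited tables give, per the file headers, raw read counts per gene and FPKM values per gene that the authors scaled by length and library size, with gene positions and descriptions. The FPKM values are not a plain rescaling of these counts. The 15 kDa zein gene Zm00001d035760 had 0.0 FPKM in wild-type replicates 1 and 2, beside 4250404 and 3881925 counts. Differences between FPKM and count results may therefore not come from scaling alone. Libraries were of the Truseq mRNA type, with no word on strand in the labels. No aligner, counter, build or annotation is named (not given in the sources used here), and coordinates carry no build name.

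Genes were taken by description, and all lists and named genes were chosen with earlier results of these data known. Named genes were every receptor, kinase and phosphatase with a group A number that had a count, the 8 largest rises and 8 largest falls among other called phosphatases with at least 2 CPM, the 3 highest by FPKM, and the 3 smallest adjusted p of each pathway list. Zm00001d007530, Zm00001d033222, the 2C 76 genes, the grouping by description, the ABI2, HAB1 and PP2CA list, the genes set apart by wild-type replicate 2 and 11 others were chosen after their values were seen.

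Counts of all genes were filtered with filterByExpr, scaled by TMM (factors 1.191, 1.183 and 1.214 in nacRNAi and 0.831, 0.8062 and 0.8721 in wild type) and tested with edgeR 4.0.16 (robust quasi-likelihood, line as the only term) in R 4.3.3. P-values were adjusted by Benjamini-Hochberg over 22259 genes, with 0.05 as the threshold. Each SE was taken from edgeR's F statistic (size of the log2 fold change over the root of F). A count of 0 allows 3 counts, which covers counting error only. Replicates differed beyond sampling noise (chi-square per degree of freedom 26.1 to 50.3).

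Alternatives were DESeq2 size factors, library totals, TMM without zein genes, no filter, at least 1 CPM in 3 libraries, the DESeq2 1.42.0 Wald test, limma 3.58.1 on FPKM with 1 or 0.1 added before taking log2, a replicate block, a loess length trend (span 0.3) removed, and leaving out each library. Python 3.11.15 with pandas 2.3.3 and matplotlib 3.10.9 was used for the rest.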

Additional observations from a re-analysis of the deposited data

How the results depend on the processing

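The counts of receptors, phosphatases and the SAPK kinase that passed stayed within 1.5 times of those reported, in each direction, under DESeq2 size factors, TMM without zein genes, both filters, the DESeq2 Wald test and the replicate block. Without each library in turn, 6 receptors fell and none rose, 22 to 27 phosphatases rose and 16 to 22 fell. Under library totals 2 receptors, 46 phosphatases and 1 kinase rose, and 6 receptors and 5 phosphatases fell. On the log2(FPKM + 1) and log2(FPKM + 0.1) scales alike, 4 receptors, 53 phosphatases and 1 kinase rose and 2 receptors and 3 phosphatases fell. With the length trend removed 1 receptor rose and 6 fell. These scalings also moved the median gene, by 0.516, 0.389 and 0.601 on the log2 scale under library totals, log2(FPKM + 1) and log2(FPKM + 0.1). Of the 50 phosphatase calls, 32 were made again under library totals and 18 were lost, while on log2(FPKM + 1) 30 were made again, 2 turned and 18 were lost.

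Nothing in the labels ties replicate numbers across the lines, so whether the libraries were paired is not known. Deviations of same-numbered libraries correlated at 0.011, -0.049 and -0.103. Such values show no shared deviation but cannot exclude a pairing. With the replicate block 25 phosphatases rose and 19 fell, the receptor calls stayed at 6, and 9273 genes were called in all, against 10519 without it. The block turned Zm00001d026269 to 0.05 and Zm00001d013220 to 0.12.

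Log2 fold changes that turned were as follows. Under library totals they were 0.43 (Zm00001d030045), 0.27 (Zm00001d047037), 0.31 (Zm00001d053396), 0.24 (Zm00001d020053), 0.35 (Zm00001d024732), 0.5 (Zm00001d026269), 0.02 (Zm00001d001988), 0.35 (Zm00001d040189), 0.39 (Zm00001d013220), 0.38 (Zm00001d048131) and 0.34 (Zm00001d034655). On log2(FPKM + 1) and then log2(FPKM + 0.1) they were 0.73 and 0.75 (Zm00001d030045), 0.74 and 0.78 (Zm00001d047037), 0.57 and 0.68 (Zm00001d053396), 0.07 and 0.08 (Zm00001d020053), 0.06 and 0.11 (Zm00001d024325), 0.66 and 0.75 (Zm00001d024732), 0.6 and 0.63 (Zm00001d026269), 0.15 and 0.41 (Zm00001d028752), 0.0 and 0.0 (Zm00001d018394), 0.1 and 0.11 (Zm00001d011132), 0.17 and 0.25 (Zm00001d047412), 0.18 and 0.19 (Zm00001d001988), 0.2 and 0.32 (Zm00001d002603), 0.54 and 0.55 (Zm00001d040189), 0.76 and 0.84 (Zm00001d013220), 0.62 and 0.73 (Zm00001d048131), and 0.54 and 0.82 (Zm00001d034655). With the length trend removed they were 0.21 (Zm00001d030045), 0.05 (Zm00001d047037) and 0.02 (Zm00001d026269). Without single libraries the value ran from -0.19 to 0.35 in Zm00001d026269, -0.16 to 0.71 in Zm00001d028574, -1.34 to 0.27 in Zm00001d028752, -0.18 to 0.25 in Zm00001d052852, -0.46 to 0.71 in Zm00001d013220, -0.39 to 0.32 in Zm00001d048131 and -0.4 to 0.18 in Zm00001d034655. The cause was not tested. Members near 1 CPM, such as PYL5 Zm00001d038436 and the 2C 30 genes, rest on few counts and are the least precise.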
